A study of Mus musculus with 7 samples.

Results

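Genes that build the basement membrane were followed in the mouse heart, 10 in all: the laminin chains Lama2, Lama4, Lama5, Lamb1, Lamb2 and Lamc1, the nidogens Nid1 and Nid2, and the proteoglycans Hspg2 (perlecan) and Agrn (agrin). They were chosen by name, as members of these 3 families, and are 10 of the 56980 genes in the deposited table. Myocardial RNA came from 7 wild-type male C57BL/6J mice, bought at 8 weeks of age. In 3 mice the left coronary artery had been tied (MI mice), and 4 mice went through the same surgery with no ligation (sham mice). Tissue was taken 4 days later, and each mouse gave 1 library. Values are FPKM, the fragments counted on a gene relative to its length and to the size of the library, so levels can be set beside each other between genes on a per-length scale.

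Basement membranes are thin sheets of extracellular matrix that wrap cardiomyocytes and underlie the endothelium of every cardiac vessel. Laminins are heterotrimers of an alpha, a beta and a gamma chain that polymerize on the cell surface, where integrins and dystroglycan bind them. Nidogens connect the laminin polymer to the type IV collagen network, and perlecan and agrin add heparan sulfate chains that hold growth factors.

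Of the 10 genes, 9 had higher FPKM in MI replicates 1 and 3 than in any sham mouse, and Lama5 was the exception. The share of all tested genes with both of these mice above every sham mouse was 61.9%. Nid1 differed most, at 2.57 and 2.77 times the sham mean in those 2 mice, followed by Nid2 at 2.05 and 2.28 times. In MI replicate 2, by contrast, 5 of the 10 genes lay inside the sham range, and Nid1 stood at 1.14 times the sham mean. With all 7 mice, none of the 10 passed an adjusted p of 0.05 in limma.

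MI replicate 2 stood apart from the other MI libraries across all genes, so its values are given separately, and the calls and fold changes of the 10 genes are given with and without it. Across the 11431 genes tested (FPKM of 1 or more in 3 or more mice), which are not independent replicates, its Pearson's r with the sham mice was 0.984 to 0.987. MI replicate 1 had an r of 0.878 to 0.881, and MI replicate 3 one of 0.903 to 0.906. Mitochondrial genes held 55.7% to 57.1% of the summed FPKM in sham mice, 58.5% in MI replicate 2, and 36.1% and 38.2% in MI replicates 1 and 3. Depth ran from 19977712 to 23610870 fragments per library. The median gene was 0.21 higher in MI mice on the log2(FPKM + 1) scale, and 0.33 higher without MI replicate 2. Leaving that mouse out was a choice made from these same data, and it removes the MI mouse nearest to the sham mice. The standard error of Nid1, for example, was 0.29 with it and 0.06 without it. Adjusted p values without that mouse make no allowance for this choice and are descriptive.

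The stretch of genome just before a gene's start is printed for 4 of the genes, to place 3 that were high together in MI replicates 1 and 3 beside the 1 that was not. Sequences are from RefSeq windows on GRCm38.p6, whose table matched 7 of the 10 genes, and are trimmed to bases before the start annotated in GENCODE M21. The window of Lama2 lies inside the annotated gene and was not used, which left 6 stretches. They are written 5′ to 3′ on the gene's own strand, with capitals marking the GC box core GGGCGG on either strand. The first is Nid1, chr13:13437352-13437550 on the plus strand, followed by Lamb1, chr12:31265043-31265233 on the plus strand, Hspg2, chr4:137468553-137468768 on the plus strand, and Lama5, chr2:180225860-180226109 on the minus strand.
Nid1: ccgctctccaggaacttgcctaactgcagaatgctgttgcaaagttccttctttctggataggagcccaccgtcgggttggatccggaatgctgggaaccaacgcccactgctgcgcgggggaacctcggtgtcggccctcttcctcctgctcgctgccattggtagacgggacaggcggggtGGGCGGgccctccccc
Lamb1: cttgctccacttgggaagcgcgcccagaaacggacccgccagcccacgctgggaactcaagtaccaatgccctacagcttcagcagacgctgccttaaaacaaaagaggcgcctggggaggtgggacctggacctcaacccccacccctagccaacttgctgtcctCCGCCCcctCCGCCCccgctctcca
Hspg2: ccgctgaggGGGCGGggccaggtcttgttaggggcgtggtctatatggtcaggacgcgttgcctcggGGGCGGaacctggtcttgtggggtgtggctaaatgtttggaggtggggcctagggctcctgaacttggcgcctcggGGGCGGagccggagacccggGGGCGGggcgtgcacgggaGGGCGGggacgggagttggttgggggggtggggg
Lama5: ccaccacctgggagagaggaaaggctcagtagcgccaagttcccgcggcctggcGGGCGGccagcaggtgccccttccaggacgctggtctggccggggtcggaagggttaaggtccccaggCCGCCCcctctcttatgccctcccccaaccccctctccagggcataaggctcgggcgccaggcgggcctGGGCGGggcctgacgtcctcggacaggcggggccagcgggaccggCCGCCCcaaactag
The Nid1 stretch held 1 match to GGGCGG, Lamb1 held 2, Hspg2 held 5 and Lama5 held 4. The stretch before Agrn held 12, some of which overlap each other, and the one before Lamb2 held 0. Of all 32851 windows of 250 bases in the table, 32.7% held at least 1. Neither the TATA box core TATAAA nor TGANTCA, the letters bound by AP-1 factors, was present in these 6 stretches, on either strand. The shares over all windows were 12.4% for TATAAA and 6.75% for TGANTCA. GC content was 63.8% before Nid1, 63.9% before Lamb1, 70.8% before Hspg2, 72.4% before Lama5, 83.6% before Agrn and 37.9% before Lamb2, against a median of 52.4% over all windows. All 4 stretches printed thus held the GC box letters, that of Lama5 included.

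In sham mice the per-length levels of the 10 genes spanned from a mean of 64.3 FPKM for Lamb2 to 5.92 for Nid2. Lamb2 was followed by Hspg2 at 47.1, Lamc1 at 27.1, Nid1 at 26.0, Lama5 at 17.7 and Lamb1 at 10.7. Lama2 at 8.38, Lama4 at 7.79 and Agrn at 7.04 came next. The sham ranges of Lamc1 and Nid1 overlapped, as did those of Lama2 and Lama4 and those of Lama4 and Agrn, and all other neighbours in this order were apart in every sham mouse. Each value rested on 743 to 29111 fragments per mouse, recovered from the steps in the FPKM values. Counting error alone at those numbers is a CV of 3.67% to 0.586%. The lengths implied by the deposited values were longer than the GENCODE M21 exon length for each of the 10, so the order of levels holds for the authors' gene models.

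**Figure D1:**
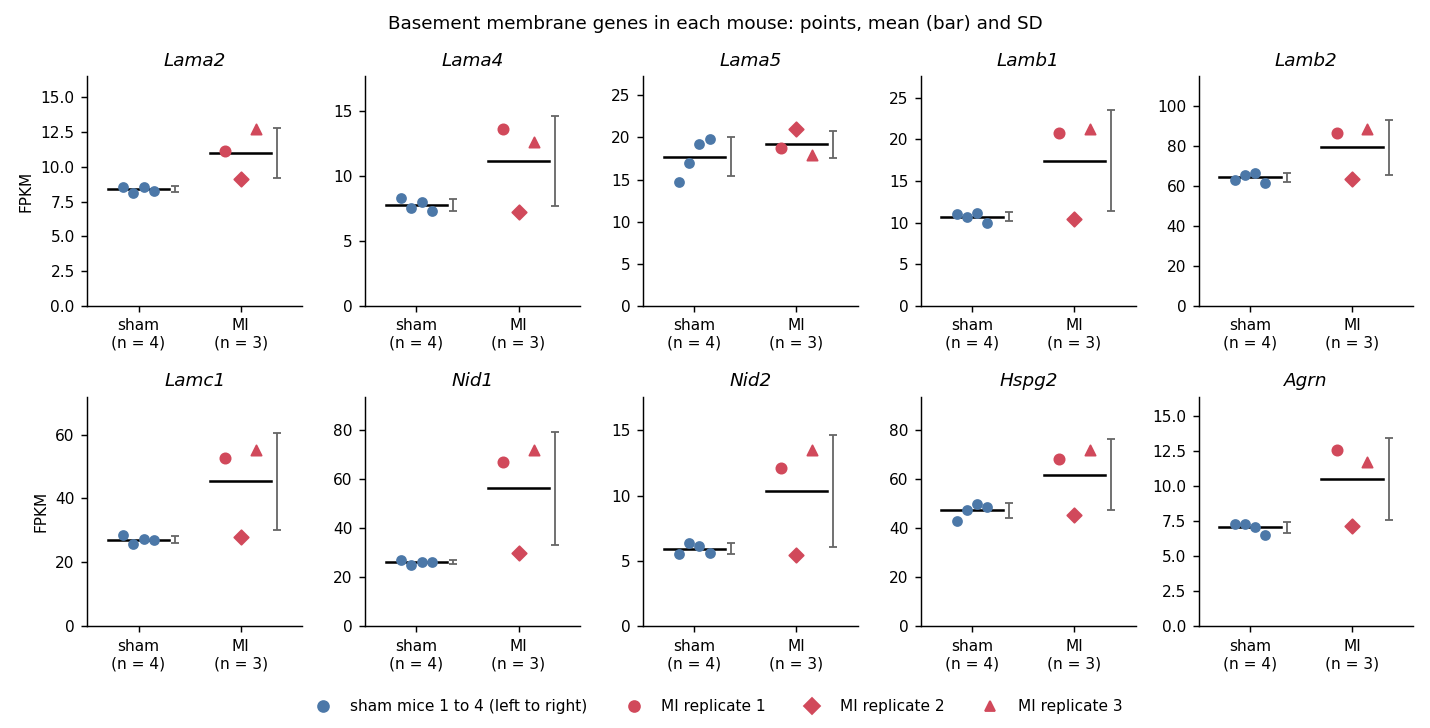
FPKM of each gene (vertical axis, from 0, scaled per panel) in the 4 sham mice and 3 MI mice, with 1 point per mouse, a bar at the group mean and the SD beside it. MI replicates 1 and 3 lie above all sham mice in 9 panels, while MI replicate 2, the diamond, lies at or near the sham points except for Lama2, Nid1 and Lama5.

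Among the alpha chains, which set the receptor binding of a laminin, Lama2 (ENSMUSG00000019899, chromosome 10, 26980036 to 27619758, minus strand) encodes the chain of the muscle fibre basement membrane. Its FPKM was 8.58, 8.15, 8.54 and 8.24 in sham replicates 1 to 4, and 11.1, 9.14 and 12.7 in MI replicates 1 to 3. All 3 MI mice were above the highest sham mouse. This gave a log2 fold change of 0.34 (standard error 0.12, limma adjusted p = 0.108), and 0.46 without MI replicate 2 (adjusted p = 0.000761). Lama4 (ENSMUSG00000019846, chromosome 10, 38965515 to 39110188, plus strand) encodes a chain of the endothelial basement membrane. Sham mice had 8.33, 7.56, 8.0 and 7.30 FPKM, and MI mice 13.6, 7.23 and 12.7. MI replicates 1 and 3 were above the sham mice and MI replicate 2 below them, so the groups overlapped. The log2 fold change of Lama4 was 0.43 (standard error 0.20, limma adjusted p = 0.145), and 0.68 without MI replicate 2 (adjusted p = 0.000143).

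Lama5 (ENSMUSG00000015647, chromosome 2, 180176373 to 180225859, minus strand) encodes the other main vascular alpha chain and had a different pattern. Its FPKM was 14.7, 17.0, 19.2 and 19.8 in sham mice and 18.8, 21.0 and 17.9 in MI mice. MI replicates 1 and 3 lay within the sham range, and the highest of all 7 mice was MI replicate 2. Its log2 fold change of 0.12 (standard error 0.13, limma adjusted p = 0.476) was below that of the median gene by 0.09. Leaving out MI replicate 2 gave 0.06 (standard error 0.12, adjusted p = 0.687). Its direction depended on the scaling: the log2 fold change was -0.14 after scaling by the median log-ratio, -0.13 after quantile normalization and -0.0065 with mitochondrial genes left out.

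Of the beta chains, Lamb1 (ENSMUSG00000002900, chromosome 12, 31265234 to 31329644, plus strand) encodes the beta chain that is widespread in embryonic and adult tissue. It stood at 11.1, 10.6, 11.1 and 9.95 FPKM in sham mice and at 20.7, 10.4 and 21.2 in MI mice. MI replicates 1 and 3 had about the same level, and MI replicate 2 was inside the sham range. Lamb1 had a log2 fold change of 0.60 (standard error 0.23, limma adjusted p = 0.115), and 0.91 without MI replicate 2 (adjusted p = 2.94e-05). Lamb2 (ENSMUSG00000052911, chromosome 9, 108479736 to 108490530, plus strand) encodes the beta chain known from neuromuscular junctions, kidney and vessels, and had the highest level of the 10 genes in every mouse. Sham mice had 63.2, 65.7, 66.7 and 61.7 FPKM, and MI mice 86.3, 63.5 and 88.4. The same 2 MI mice were above the sham range. Lamb2 had a log2 fold change of 0.28 (standard error 0.14, limma adjusted p = 0.153), and 0.44 without MI replicate 2 (adjusted p = 0.000456).

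Lamc1 (ENSMUSG00000026478, chromosome 1, 153218922 to 153332786, minus strand) encodes the gamma chain shared by most laminins, and the chain that nidogens bind. Its FPKM was 28.4, 25.6, 27.3 and 26.9 in sham mice and 52.9, 27.9 and 55.4 in MI mice. The levels in MI replicates 1 and 3 were 1.95 and 2.05 times the sham mean, and that in MI replicate 2 was within the sham range. Lamc1 had a log2 fold change of 0.66 (standard error 0.23, limma adjusted p = 0.109), and 0.97 without MI replicate 2 (adjusted p = 2.07e-05).

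Nid1 (ENSMUSG00000005397, chromosome 13, 13437551 to 13512269, plus strand) had the largest fold change of the 10 genes. Sham mice were close together at 26.9, 25.0, 26.1 and 26.2 FPKM, and MI mice had 66.9, 29.7 and 72.1. All 3 MI mice were above all 4 sham mice. The log2 fold change was 0.98 (standard error 0.29, limma adjusted p = 0.108), or 0.77 above the median gene. It was 1.38 without MI replicate 2 (adjusted p = 5.54e-06). Nid2 (ENSMUSG00000021806, chromosome 14, 19751265 to 19811787, plus strand) encodes the second nidogen and had the lowest sham level of the 10. Its FPKM was 5.55, 6.39, 6.14 and 5.62 in sham mice and 12.1, 5.48 and 13.5 in MI mice. MI replicate 2 was just below the lowest sham mouse. Nid2 had a log2 fold change of 0.63 (standard error 0.27, limma adjusted p = 0.125), and 1.00 without MI replicate 2 (adjusted p = 4.61e-05). Nid2 shares 437 exon bases with Rtraf, Nid1 shares 143 with Gm48682 and Lama2 shares 631 with Gm48084, each on the opposite strand. Whether counting used the strand is not given in the sources used here, so these 3 values may hold fragments of the partner gene.

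Hspg2 (ENSMUSG00000028763, chromosome 4, 137468769 to 137570630, plus strand) encodes perlecan, a large heparan sulfate proteoglycan of vessel walls. Sham mice had 42.9, 47.2, 49.6 and 48.6 FPKM and MI mice 68.1, 45.1 and 71.9. MI replicate 2 was within the sham range and the other 2 above it. Hspg2 had a log2 fold change of 0.36 (standard error 0.17, limma adjusted p = 0.153), and 0.56 without MI replicate 2 (adjusted p = 0.000441). Agrn (ENSMUSG00000041936, chromosome 4, 156165290 to 156197488, minus strand) encodes agrin, known for clustering acetylcholine receptors at the neuromuscular junction. Its FPKM was 7.30, 7.29, 7.08 and 6.48 in sham mice and 12.6, 7.17 and 11.7 in MI mice. In MI replicates 1 and 3 it was at 1.79 and 1.67 times the sham mean. Agrn had a log2 fold change of 0.48 (standard error 0.18, limma adjusted p = 0.112), and 0.71 without MI replicate 2 (adjusted p = 0.00011).

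Counted together, 0 of the 10 genes passed an adjusted p of 0.05 in limma in either direction, where 0.0175% of all 11431 tested genes were called higher and 0.00875% lower. Voom weights on the recovered fragments also called 0 of the 10. At an unadjusted p under 0.05, 6 of the 10 were higher (Lama2, Lamb1, Lamc1, Nid1, Nid2 and Agrn) and 0 lower, where 29.5% of all tested genes were higher and 9.85% lower. The groups did not overlap for Lama2 and Nid1, 2 of the 10, and the share of all tested genes with every MI mouse above every sham mouse was 16.1%. None of the 10 had every MI mouse below every sham mouse, as 9.00% of all tested genes did. Without MI replicate 2, 9 of the 10 passed an adjusted p of 0.05 as higher and 0 as lower, and all tested genes had 57.0% higher and 14.7% lower. The median log2 fold change of the 10 genes was 0.45 against 0.21 over all genes, and 0.70 against 0.33 without MI replicate 2. The 9 genes other than Lama5 kept a positive log2 fold change under each of the 18 alternative settings run, but its size depended on the scaling. With median log-ratio scaling it was 0.01 for Lamb2, 0.09 for Hspg2, 0.09 for Lama2, 0.17 for Lama4, 0.23 for Agrn, 0.34 for Lamb1, 0.39 for Nid2, 0.40 for Lamc1 and 0.71 for Nid1.

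**Figure D2:**
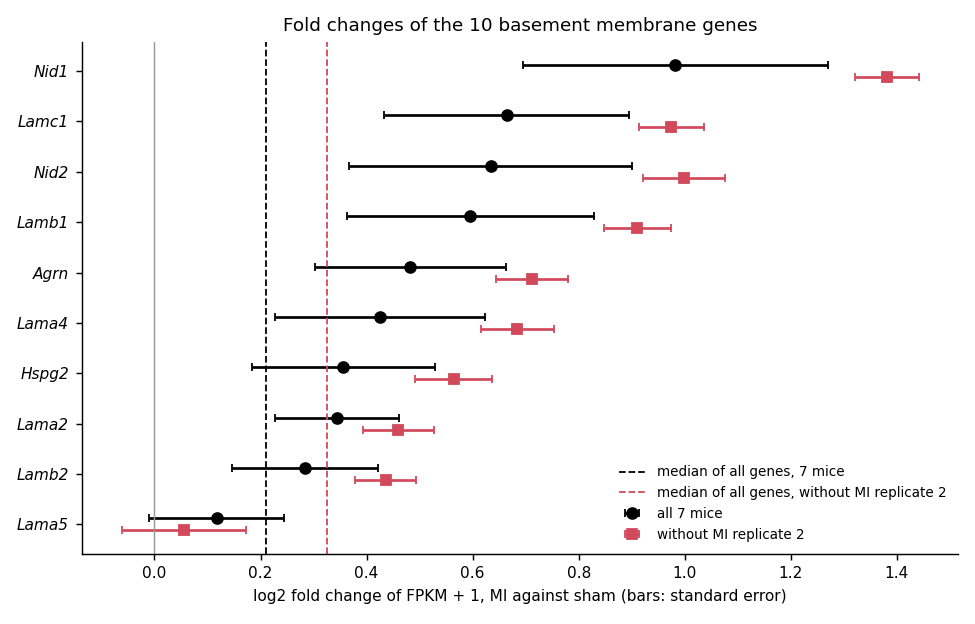
Log2 fold change of FPKM + 1, MI against sham (horizontal axis), for the 10 genes with the standard error as bars, from all 7 mice (black circles) and without MI replicate 2 (red squares). Dashed lines mark the median of all genes at 0.21 and 0.33 for the 2 sets of mice. Nid1 lies farthest right, at 0.98 and 1.38, and Lama5 is left of both dashed lines.

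The balance between chains was read within each mouse, where it does not depend on a scaling factor between libraries. Quantile normalization, which is not a single factor, moved the Agrn to Hspg2 difference to 0.08 and the Nid2 to Nid1 difference to -0.40. In all, 6 log2 ratios of FPKM were compared with exact two-sided permutation tests over mice, for which 3 mice against 4 cannot go below p = 0.0571. The Lamc1 to Nid1 ratio separated the groups. On a linear scale it was 1.06, 1.02, 1.05 and 1.03 in sham mice and 0.79, 0.938 and 0.768 in MI mice, so that Nid1 passed Lamc1 in each MI mouse. The mean log2 ratio was 0.33 lower in MI mice, 0.05 ± 0.02 (SD, n = 4) against -0.27 ± 0.16 (SD, n = 3), with an exact permutation p of 0.0571 and 0.171 after adjustment over the 6 ratios. The difference was -0.41 without MI replicate 2. The Nid2 to Nid1 ratio also separated them: it was 0.207, 0.255, 0.235 and 0.215 in sham mice and 0.181, 0.184 and 0.188 in MI mice. In this ratio MI replicate 2 lay between the other MI mice. The log2 difference was -0.30 (exact permutation p = 0.0571, adjusted 0.171), and -0.30 without MI replicate 2.

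The other 4 ratios overlapped between groups. Lamb2 to Lamb1 was 5.71, 6.18, 6.01 and 6.20 on a linear scale in sham mice, and 4.17, 6.09 and 4.17 in MI mice. Its log2 difference was -0.35 (exact permutation p = 0.171, adjusted 0.343), and -0.53 without MI replicate 2. Lama5 to Lama4, both chains of vessel walls, was 1.77, 2.25, 2.40 and 2.72 in sham mice and 1.38, 2.90 and 1.41 in MI mice. The log2 difference was -0.34 (exact permutation p = 0.4, adjusted 0.48), and was -0.16 without MI replicate 1 and -0.18 without MI replicate 3. It was -0.69 without MI replicate 2. Of the 6 ratios, all but Agrn to Hspg2 had no overlap without that mouse, each with an exact permutation p of 0.133, the smallest that 2 mice against 4 allow. Lama2 to Lama4 differed by -0.09 (exact permutation p = 0.629), and the sign of this difference turned when MI replicate 1 was left out, to 0.065. It was -0.25 without MI replicate 2. Agrn to Hspg2 differed by 0.17 (exact permutation p = 0.229, adjusted 0.343), by 0.22 without MI replicate 2 and by 0.11 without MI replicate 1. None of the 6 ratios passed an adjusted p of 0.05, which this number of mice could not reach.

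**Figure D3:**
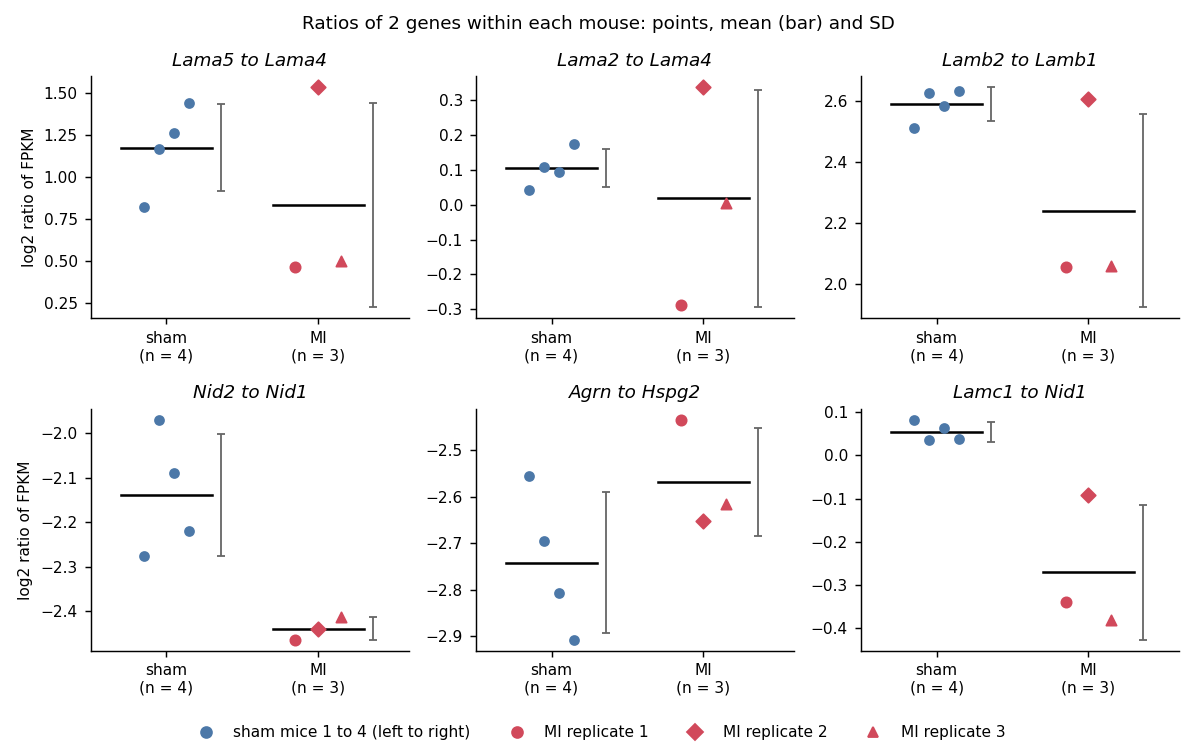
Log2 ratio of the FPKM of 2 genes within each mouse (vertical axis, scaled per panel) in the 4 sham and 3 MI mice, with the group mean as a bar and the SD beside it. Nid2 to Nid1 and Lamc1 to Nid1 show no overlap between groups, and in the alpha and beta chain panels MI replicate 2, the diamond, departs from the other MI mice.

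As a share of the summed FPKM of each family, Lama5 held 46.0% to 55.7% of the alpha chains in sham mice, and 42.4%, 55.5% and 40.8% in MI replicates 1 to 3. Lama4 held 20.5% to 26.0% in sham mice, and 30.7%, 19.2% and 28.9% in MI mice. In MI replicates 1 and 3 Lama4 was thus above and Lama5 below the sham range. Lama2 held 23.1% to 26.8% in sham mice and 25.2%, 24.2% and 29.0% in MI mice. Lamb2 made up 83.3% to 83.8% of the beta chains in sham mice and 79.8%, 83.6% and 79.7% in MI mice, and the share of Lamb1 was 13.5% to 14.6% against 19.2%, 13.7% and 19.1%. Both beta chain shares were outside the sham range in the same 2 MI mice. Lamc1 held at least 94.9% of the gamma chains in every mouse. Nid1 held 79.7% to 82.9% of the nidogen FPKM in sham mice and 84.6%, 84.4% and 84.2% in MI mice, above all sham mice.

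Other laminin chains were at low levels. Lamb3, a chain of epithelial laminin, had 1.57 to 2.06 FPKM in sham mice and 1.06, 2.06 and 1.36 in MI mice. Lama3, an alpha chain of epithelial laminin, stood at 0.247 to 0.361 FPKM in sham mice and 0.645, 0.411 and 0.536 in MI mice, and was not tested. The log2 fold change of Lamb3 was -0.24 (limma adjusted p = 0.227), and -0.40 without MI replicate 2 (adjusted p = 0.00968).

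For the collagens of the basement membrane, the median log2 fold change was 0.90 over the 6 of 8 type IV, XV and XVIII collagen genes tested, against 0.45 for the 10 genes above. The medians were 1.55 and 0.70 without MI replicate 2. Col4a2, a chain of the main type IV network, had 64.1 to 90.4 FPKM in sham mice and 204.9, 60.8 and 200.7 in MI mice. Its partner Col4a1 had 47.0 to 71.5 in sham mice and 187.2, 40.0 and 178.5 in MI mice. Col15a1, a collagen that lies beside muscle and vessel basement membranes, had 12.9 to 17.2 in sham mice and 59.7, 12.8 and 60.1 in MI mice. In all 3 genes MI replicate 2 was below the lowest sham mouse and the other MI mice were above the highest. Limma called 0 of the 6 at an adjusted p of 0.05, voom 0, and 1 was higher at an unadjusted p under 0.05 (29.5% of all tested genes). Col18a1, picked out after its values were seen, was the 1 tested collagen of 6 with no overlap, beside 16.1% of all tested genes, and had 1.62 to 2.14 FPKM in sham mice and 12.7, 2.64 and 11.2 in MI mice. Of the 6, 5 passed an adjusted p of 0.05 as higher and 0 as lower without MI replicate 2, where 57.0% of all tested genes were higher and 14.7% lower.

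Among 17 other basement membrane proteins, 13 were tested, with a median log2 fold change of 0.23, and 0.43 without MI replicate 2. Sparc, a collagen-binding matricellular protein, had 80.7 to 106.3 FPKM in sham mice and 826.3, 103.8 and 736.8 in MI mice. Fbln1 and Fbln2 encode fibulins, glycoproteins that bind laminins and nidogens. Fbln1 had 16.2 to 19.1 FPKM in sham mice and 101.5, 27.0 and 87.2 in MI mice, with no overlap. Fbln2 had 11.1 to 13.9 in sham mice and 52.4, 12.6 and 50.2 in MI mice. Limma called 0 of the 13 (4 higher and 2 lower at an unadjusted p under 0.05, beside 29.5% and 9.85% of all tested genes, 0 by voom). Besides Fbln1, Tinagl1 had every MI mouse above the sham mice, and Egflam and Frem2 had every MI mouse below them, all 3 named after their values were seen. Those are 2 of the 13 tested above and 2 below, beside 16.1% and 9.00% of all tested genes. Tinagl1, a secreted relative of a tubular basement membrane antigen, had 8.57 to 11.1 FPKM in sham mice and 15.1, 14.0 and 15.4 in MI mice. Egflam, which encodes pikachurin, a dystroglycan ligand, had 1.78 to 2.11 FPKM in sham mice and 1.03, 1.66 and 0.923 in MI mice. Frem2, an extracellular matrix protein of epithelial basement membranes, had 1.15 to 1.79 in sham mice and 0.647, 1.05 and 0.796 in MI mice. The fit without MI replicate 2 called 8 of the 13 higher and 2 lower, close to the shares of all tested genes, 57.0% and 14.7%.

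Of 11 laminin and agrin receptors, 9 were tested, with a median log2 fold change of 0.13, against 0.21 over all genes, and of 0.28 against 0.33 without MI replicate 2. Itgb1, the integrin beta 1 subunit of most laminin-binding integrins, had 75.7 to 82.2 FPKM in sham mice and 148.0, 80.1 and 153.8 in MI mice. Bcam, a receptor for laminin alpha 5, had 67.8 to 71.0 in sham mice and 58.0, 65.4 and 67.7 in MI mice. Itga7, the laminin-binding integrin subunit of muscle, had 17.2 to 19.4 in sham mice and 15.6, 16.0 and 15.7 in MI mice. Bcam, Itga7 and Dag1, which encodes dystroglycan and was named after its values were seen, had every MI mouse below every sham mouse, MI replicate 2 included, 3 of 9 beside 9.00% of all tested genes. Dag1 stood at 15.8 to 18.2 FPKM in sham mice and at 13.7, 15.2 and 14.0 in MI mice. This order holds for FPKM, whose sum was 378221 and 386335 in MI replicates 1 and 3 against 463838 to 476593 in sham mice. As a share of each library's sum, none of the 3 genes separated the groups. Limma called 0 of the 9 (2 higher and 1 lower at an unadjusted p under 0.05, beside 29.5% and 9.85% of all tested genes, 0 by voom). The fit without MI replicate 2 called 5 of the 9 higher and 2 lower, where the shares of all tested genes were 57.0% and 14.7%.

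The dystrophin glycoprotein complex carries the laminin link through the cardiomyocyte membrane. A list of 12 of its genes was tested, without Dag1, which was counted with the receptors above. The median log2 fold change of the 12 was -0.05, and -0.09 without MI replicate 2. Sspn (sarcospan) had 54.2 to 56.5 FPKM in sham mice and 40.3, 50.4 and 44.3 in MI mice, all 3 below the sham mice. That is 1 of the 12, near the 9.00% of all tested genes, and 0 of the 12 had every MI mouse above the sham mice. Sgcb, a sarcoglycan, had 32.9 to 36.1 in sham mice and 32.7, 35.1 and 33.0 in MI mice. Limma called 0 of the 12 (2 higher and 1 lower at an unadjusted p under 0.05, beside 29.5% and 9.85% of all tested genes, 0 by voom). Without MI replicate 2, 3 of the 12 were called higher and 4 lower, beside 57.0% and 14.7% of all tested genes.

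A further 19 genes make, modify or cut the heparan sulfate chains that perlecan and agrin carry, and 15 were tested, with a median log2 fold change of 0.33, and 0.54 without MI replicate 2. Sulf2, an extracellular sulfatase that removes sulfate from these chains, had 5.58 to 6.38 FPKM in sham mice and 20.9, 7.17 and 21.3 in MI mice, with no overlap. B3gat3, which completes the linker between protein and chain, had 7.20 to 7.98 in sham mice and 9.62, 6.82 and 9.09 in MI mice. Extl3, a transferase that starts the chain, had 7.19 to 7.82 in sham mice and 9.12, 7.27 and 8.93 in MI mice. Sulf1, Glce and Ndst2 were the other 3 tested genes with every MI mouse above the sham mice, which makes 4 of 15 beside 16.1% of all tested genes, and were named after their values were seen. Sulf1, the second sulfatase, had 1.44 to 2.07 FPKM in sham mice and 9.13, 2.68 and 10.1 in MI mice. Glce, the glucuronic acid epimerase of the chain, had 1.16 to 1.35 in sham mice and 2.00, 1.68 and 1.92 in MI mice. Ndst2, which swaps acetyl for sulfate groups on it, had 0.894 to 1.05 in sham mice and 2.47, 1.23 and 1.39 in MI mice. Limma called 0 of the 15 (6 higher and 0 lower at an unadjusted p under 0.05, beside 29.5% and 9.85% of all tested genes, 0 by voom). Without MI replicate 2, 13 of the 15 were called higher and 0 lower, beside 57.0% and 14.7% of all tested genes.

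**Figure D4:**
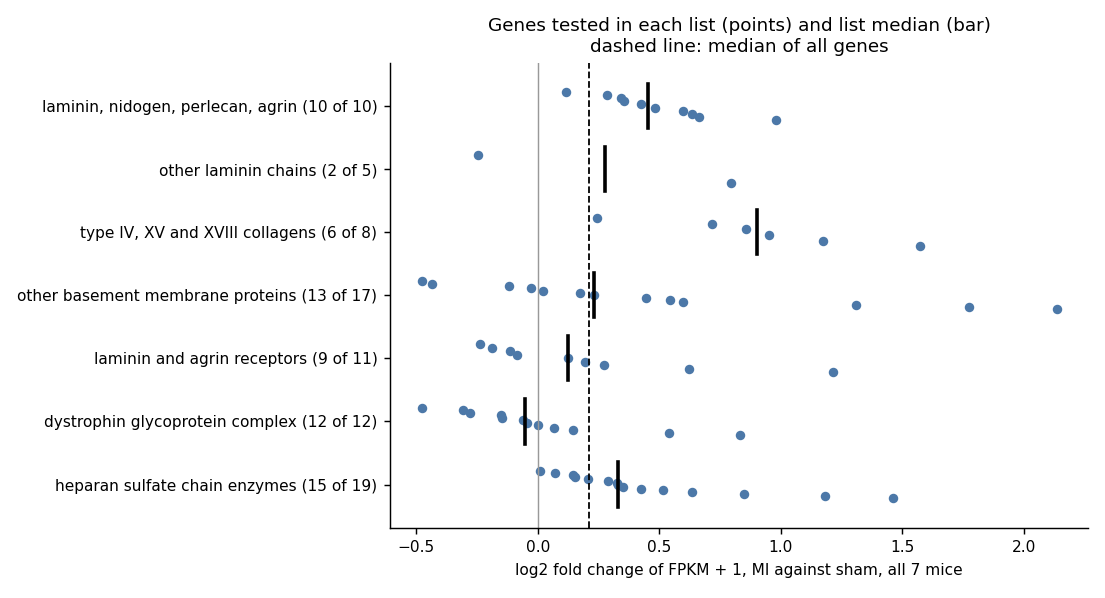
Log2 fold change of FPKM + 1, MI against sham in all 7 mice (horizontal axis), for each tested gene (points) of the 10 genes described here and of 6 related lists, with the list median as a bar and the median of all genes, 0.21, as a dashed line. Numbers beside each list are genes tested of genes listed. The collagens have the highest list median, at 0.90, and the dystrophin glycoprotein complex the lowest, at -0.05.

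Levels in whole tissue depend on which cells the sample holds, and fewer cells of a type and less RNA per cell cannot be told apart here. Markers of several cell types differed in the same MI mice as 9 of the 10 genes, all but Lama5. Summed over the 7 fibroblast markers, FPKM was 112.5 to 133.1 in sham mice and 2203, 212.7 and 1703 in MI mice, and 6 of the 7 had every MI mouse above the sham mice, beside 16.1% of all tested genes. Col3a1, the most abundant of them, had 24.7 to 35.2 FPKM in sham mice and 830.1, 67.0 and 574.6 in MI mice. For both the sum and Col3a1 the groups did not overlap, and MI replicate 2 was the MI mouse nearest to the sham mice. The sum over 5 macrophage markers was 111.2 to 148.3 in sham mice and 779.5, 134.7 and 676.2 in MI mice, led by Lyz2 at 98.4 to 131.4 against 706.8, 118.6 and 613.2. The 7 cardiomyocyte markers summed to 12249 to 13408 in sham mice and 8381, 12322 and 8786 in MI mice. Actc1, the highest of them, had 5741 to 7013 in sham mice and 5216, 5896 and 5069 in MI mice. Of the 7 cardiomyocyte markers, 1 had every MI mouse below every sham mouse, beside 9.00% of all tested genes, and 0 had every MI mouse above. Of the 4 macrophage markers tested, 0 separated the groups.

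The 8 endothelial markers had a summed FPKM of 136.4 to 155.9 in sham mice and 171.7, 128.8 and 183.9 in MI mice. Cdh5 (VE-cadherin) had 57.1 to 69.6 FPKM in sham mice and 68.8, 53.7 and 75.8 in MI mice, with a log2 fold change of 0.06 (standard error 0.14, limma adjusted p = 0.753). The 6 smooth muscle and pericyte markers summed to 210.4 to 250.5 in sham mice and 337.7, 214.6 and 376.9 in MI mice, while Rgs5, the highest of them, had 131.3 to 146.4 against 130.7, 136.9 and 132.2. Neither Cdh5 nor Rgs5 separated the groups. In each list 1 gene did, named after its values were seen: 1 of 8 endothelial markers below, beside 9.00% of all tested genes, and 1 of 6 smooth muscle and pericyte markers above, beside 16.1%. Both counts are near those shares. Kdr, an endothelial receptor for vascular growth factor, had 18.1 to 21.5 FPKM in sham mice and 17.7, 16.5 and 16.4 in MI mice, all lower. As a share of each library's summed FPKM, Kdr did not separate the groups. Tagln, a smooth muscle marker, had 9.21 to 10.2 in sham mice and 51.8, 11.8 and 50.3 in MI mice, all higher. The 5 mesothelial markers summed to 3.83 to 8.81 in sham mice and 25.9, 18.1 and 38.5 in MI mice, with Upk3b at 1.73 to 4.28 against 9.07, 7.18 and 16.8. All 4 tested mesothelial markers had every MI mouse above every sham mouse, beside 16.1% of all tested genes. The 4 Schwann cell markers summed to 2.02 to 2.56 in sham mice and 5.70, 2.76 and 4.77 in MI mice, led by Cnp at 1.29 to 1.74 against 4.87, 1.67 and 3.71. The 4 adipocyte markers, led by Adipoq, summed to at most 0.244 in sham mice and to 13.6, 0.0406 and 45.7 in MI mice. In MI replicate 2 the fibroblast, mesothelial and Schwann cell sums were above all sham mice, the macrophage, cardiomyocyte, smooth muscle and pericyte, and adipocyte sums were within the sham range, and the endothelial sum was below it. No marker of any of the 8 lists was at 0 in every mouse. Limma called 0 genes of these lists at an adjusted p of 0.05, and voom 0. At an unadjusted p under 0.05, all 7 fibroblast, 4 of 4 tested macrophage, 4 of 4 tested mesothelial, 2 of 6 smooth muscle and pericyte, 1 of 8 endothelial and 1 of 1 tested Schwann cell markers were higher, and 4 of 7 cardiomyocyte markers were lower, beside 29.5% and 9.85% of all tested genes. The fit without MI replicate 2 called all 7 fibroblast, 4 of 4 macrophage, 4 of 4 mesothelial, 4 of 6 smooth muscle and pericyte, 6 of 8 endothelial and 1 of 1 Schwann cell markers higher, and 7 of 7 cardiomyocyte markers lower, beside 57.0% and 14.7%. The part of cell makeup in the differences of the 10 genes was not tested.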

How the data were processed

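Myocardial RNA of 3 MI and 4 sham mice, grouped by the treatment in the sample labels, was analysed. The authors deposited FPKM values for 56980 genes, and 0 columns of values were left unused. The submitters' processing notes name CASAVA 1.8, HISAT2, SAMtools 1.3.1, edgeR and mm10, without roles. The annotation, the counting program and its strand setting are not given in the sources used here. No label says more of the replicates than the group, so p-values measure the spread between these 7 mice.

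Identifiers were matched to GENCODE M21 (52073, 91.4%). Whole fragments, within 0.03, were recovered for 30501 of 30504 genes above 0, and gave the depths and voom weights. Values were tested as log2(FPKM + 1), which understates the change of low genes, with limma 3.58.1 (lmFit, eBayes with trend) in R 4.3.3 over the 11431 genes that reached an FPKM of 1 in 3 or more mice, with Benjamini-Hochberg adjustment at 0.05. Ratios used exact permutation tests in Python 3.11.15. The limma fit and the recovery of whole fragments were tested on simulated data, and the permutation tests were not. Named in each gene list were the 3 genes with the highest mean FPKM, and in each cell type list the highest, plus those said to be chosen later; some genes under this rule are not reported here. The 10 genes and the lists were chosen with earlier results of these data known. Alternatives were another pseudocount, other filters, TPM, median log-ratio and quantile scaling, no trend, sample weights, a replicate block, no mitochondrial genes, voom, and each mouse left out. The human, cell culture and microarray data of the study were not analysed here.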

Additional observations from a re-analysis of the deposited data

How the results depend on the processing

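The log2 fold changes of the 9 genes other than Lama5 stayed positive under all 18 alternatives, and limma called 0 of the 10 in either direction under all but 2 of them. Leaving out MI replicate 2 and sample weights each called 9 of the 10 higher, and the number with every MI mouse above every sham mouse was then 9 without that mouse. Sample weights put nearly all MI weight on replicate 3, and their estimation stopped before it converged. Their sizes moved by over 1.5 times with median log-ratio scaling for Lamb2 (0.01), Hspg2 (0.09), Lama2 (0.09), Lama4 (0.17), Agrn (0.23), Lamb1 (0.34), Nid2 (0.39) and Lamc1 (0.40), and likewise with quantile normalization for Lama2 (0.08), Lamb2 (0.09), Lama4 (0.15), Hspg2 (0.15), Agrn (0.21), Nid2 (0.35), Lamb1 (0.36) and Lamc1 (0.43). The same held without mitochondrial genes for Lamb2 (0.15), Lama2 (0.22) and Hspg2 (0.23), and upward with TPM for Lamb2 (0.49), Lama2 (0.55), Hspg2 (0.56), Lama4 (0.64) and Lama5 (0.32). Lama4 was 0.27 without MI replicate 1, and Nid2 0.42 and Hspg2 0.23 without MI replicate 3. Lama5 turned to -0.14 with median log-ratio scaling, -0.13 with quantile normalization and -0.0065 without mitochondrial genes. Rescaling, each time with the filter applied to the rescaled values, moved the median of the genes tested from 0.21 to 0.41 (TPM), 0.01 (median log-ratio), -0.07 (quantile) and 0.11 (without mitochondrial genes). The median of the 10 genes was 0.18 with quantile normalization, and ran from 0.34 to 0.70 when each mouse was left out. Without mitochondrial genes, 4 of the 10 had every MI mouse above every sham mouse, and leaving out single mice gave 2 to 9. The 9 is without MI replicate 2, where the share of all tested genes was 61.9%. For the other settings that share is not given here, so those counts have no background to be read against.

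Over all genes, limma called 2 higher and 1 lower as reported. Changing the pseudocount to 0.1 made this 5 and 1, testing every gene above 0 made it 20 and 1, and filtering by mean FPKM made it 0 and 0, with 4740 genes under 0.05 before adjustment. The counts were 8 and 1 for TPM, 9 and 4 for the median log-ratio, 4 and 2 for quantiles, 10 and 4 once mitochondrial genes were dropped, 1 and 1 for voom, 2 and 1 for no trend, and 7636 and 2316 for sample weights. Leaving out each mouse gave 0 to 6512 higher and 0 to 1683 lower. Both upper ends are without MI replicate 2, and without MI replicate 1 it was 4 and 1. The cause of these shifts was not tested.

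Replicate numbers did not pair the mice: same-numbered MI and sham mice had correlated deviations of 0.07, -0.02 and -0.08. With the replicate block, limma called 0 genes higher and 0 lower (2332 at an unadjusted p under 0.05), 0 of the 10 genes, and the median of the 10 was 0.42. The block gave log2 ratio differences of -0.25 (Lama5 to Lama4), -0.06 (Lama2 to Lama4), -0.33 (Lamb2 to Lamb1), -0.33 (Nid2 to Nid1), 0.12 (Agrn to Hspg2) and -0.33 (Lamc1 to Nid1). Leaving out each mouse, the Lama2 to Lama4 difference ran from -0.25 to 0.065, turning positive without MI replicate 1, and the other 5 kept their sign: -0.69 to -0.16 (Lama5 to Lama4), -0.53 to -0.26 (Lamb2 to Lamb1), -0.35 to -0.24 (Nid2 to Nid1), 0.11 to 0.23 (Agrn to Hspg2, and 0.08 with quantile normalization) and -0.41 to -0.27 (Lamc1 to Nid1). Counting error was at most 3.67% per value of the 10 genes.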
